A study of Mus musculus with 19 samples.

Results

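The genes described here encode lysosomal hydrolases, the proteins that work beside them and the vacuolar proton pump (V-ATPase), 45 genes in 6 groups by role. They were listed by symbol according to their known roles, with earlier results of these data known, and all 45 were found among the 46095 symbols of the count table: 9 cathepsins, 13 glycosidases and sulfatases, 7 genes of lipid handling, further soluble hydrolases and activators, 4 lysosomal membrane proteins, 6 subunits of the V1 part of the pump, and 6 V0 subunits and accessory proteins. RNA was sequenced from bone marrow-derived macrophages (BMDM) and from cells labelled as bone mesenchymal stem cells (BMSC), both from the marrow of C57BL/6 mice whose age is not given in the sources used here. Hypergravity mice were centrifuged at 15 G in 15 min sessions over about 1 or 3 weeks, and Normal mice, fed normally, are listed at 0 G. In BMDM, 2 hypergravity and 3 Normal libraries form the 1 week set, and 2 hypergravity and 2 Normal libraries form the 3 week set. In BMSC there are 3 hypergravity and 3 Normal libraries at 1 week, and 2 of each at 3 weeks. The Normal libraries of the 1 week sets carry no duration in their labels and were taken as partners of the 1 week mice by the pattern of their names. The culture text in the labels describes macrophages grown with the factor M-CSF for both cell types, and nothing states whether libraries came from separate mice or cultures, so the p-values measure the spread between libraries, which may be technical.

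Lysosomes break down proteins, glycans, lipids and nucleic acids with acid hydrolases that are made in the endoplasmic reticulum and carried to the organelle, many of them by mannose 6-phosphate receptors. The V-ATPase pumps protons into the lumen: its V1 part in the cytosol splits ATP, and its V0 part in the membrane moves the protons. In macrophages this machinery digests what the cell has engulfed, and many of its genes carry an E-box element, CACGTG or the longer TCACGTGA, in their promoters that is bound by transcription factors of the MiT/TFE family such as TFEB.

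Library totals ran from 16324619 to 33015671 counts, and values are given as counts per 1000000 counts of the library (CPM). Macrophage transcripts were present at high level in both BMDM and BMSC libraries. The 16 macrophage markers summed to 26030 to 36100 CPM in BMDM and 25390 to 31930 CPM in BMSC, with Aif1 alone at 0 in every library. Lyz2 made up the larger part of each sum, with 14470 to 22730 CPM in BMDM and 17840 to 22110 CPM in BMSC. Single markers differed: Csf1r ran from 1786 to 2793 CPM in BMDM and 985.6 to 1510 CPM in BMSC. Itgam ran from 731.9 to 1392 CPM in BMDM and 1223 to 1991 CPM in BMSC. The 12 stroma markers summed to 33.2 to 104.4 CPM in BMDM, and to 2255 to 13080 CPM in BMSC, where none was at 0. The 12 neutrophil markers summed to 55.6 to 620.4 CPM in BMDM, and to 1174 to 3228 CPM in BMSC, where none was at 0. The BMSC libraries therefore held macrophage, stromal and neutrophil transcripts side by side. In these bulk libraries fewer cells of a type cannot be told apart from less RNA per cell.

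Promoter sequences show which of the members carry the E-box. RefSeq promoters (GRCm38.p6, the letters from 250 bases before to 50 after each start site) were matched by symbol for 39 of the 45 members. The 6-letter E-box CACGTG stood in 15 of them, or 38.5%, against 8.09% of the 27025 genes in that table and 11.7% of the 9830 of these genes that were tested in BMDM. The 8-letter form TCACGTGA, which contains the 6-letter form, stood in 6 members, or 15.4%, against 1.12% and 2.14% in the same 2 backgrounds. Both motifs read the same on either strand. Among cathepsins 4 of 7 matched members held the E-box, among glycosidases and sulfatases 6 of 13, and among the lipid-handling and further soluble group 0 of 6. A match is a description of letters and not evidence of binding. The promoters below are of 6 members whose levels are described further on, from 250 bases before the start site to 30 bases after it, in the direction of transcription, with each E-box in capitals. The first 3 belong to members that were higher under hypergravity at 1 week in BMDM and the last 3 to members that were lower.
Atp6v0d1 promoter (chr8:105566035-105566314, minus strand): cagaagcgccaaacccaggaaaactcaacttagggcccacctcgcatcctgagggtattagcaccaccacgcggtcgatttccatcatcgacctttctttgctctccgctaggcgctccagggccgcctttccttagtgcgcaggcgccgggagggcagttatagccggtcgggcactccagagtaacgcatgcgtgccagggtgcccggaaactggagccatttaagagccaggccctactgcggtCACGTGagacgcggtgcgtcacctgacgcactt
Atp6v1a promoter (chr16:44139230-44139509, minus strand): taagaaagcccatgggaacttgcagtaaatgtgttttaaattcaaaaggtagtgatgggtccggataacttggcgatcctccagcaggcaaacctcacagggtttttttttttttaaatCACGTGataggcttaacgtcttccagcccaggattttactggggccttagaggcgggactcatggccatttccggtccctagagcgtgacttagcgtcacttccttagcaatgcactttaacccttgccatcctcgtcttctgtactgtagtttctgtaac
Gla promoter (chrX:134600976-134601255, minus strand): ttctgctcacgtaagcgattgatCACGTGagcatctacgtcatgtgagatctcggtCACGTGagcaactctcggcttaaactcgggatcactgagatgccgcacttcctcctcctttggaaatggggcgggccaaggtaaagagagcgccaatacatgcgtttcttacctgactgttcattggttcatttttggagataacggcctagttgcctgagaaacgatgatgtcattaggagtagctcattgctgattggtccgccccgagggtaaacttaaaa
Ctsd promoter (chr7:142387798-142388077, minus strand): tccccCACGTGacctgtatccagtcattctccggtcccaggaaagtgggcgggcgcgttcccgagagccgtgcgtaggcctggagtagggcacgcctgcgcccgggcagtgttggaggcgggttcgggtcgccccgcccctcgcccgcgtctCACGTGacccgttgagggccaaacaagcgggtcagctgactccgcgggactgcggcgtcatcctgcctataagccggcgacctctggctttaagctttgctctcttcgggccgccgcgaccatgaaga
Lamp1 promoter (chr8:13158911-13159190, plus strand): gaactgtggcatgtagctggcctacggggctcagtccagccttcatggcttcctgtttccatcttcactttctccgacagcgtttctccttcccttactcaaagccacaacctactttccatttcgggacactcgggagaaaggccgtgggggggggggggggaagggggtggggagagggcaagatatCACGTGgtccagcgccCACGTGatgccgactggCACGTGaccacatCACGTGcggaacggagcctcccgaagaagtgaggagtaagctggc
Sgsh promoter (chr11:119355481-119355760, minus strand): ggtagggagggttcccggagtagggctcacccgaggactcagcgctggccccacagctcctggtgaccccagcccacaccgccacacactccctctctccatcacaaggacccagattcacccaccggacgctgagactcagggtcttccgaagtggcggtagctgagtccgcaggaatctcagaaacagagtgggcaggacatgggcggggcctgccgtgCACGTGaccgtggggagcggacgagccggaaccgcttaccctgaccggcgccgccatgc
The Gla promoter held the 8-letter form at 2 places, whose first letters lie at -228 and -195 from the start site, and those of Atp6v1a and Atp6v0d1 held it at -132 and -4. In Ctsd, E-boxes lay at -245 and -98, the nearer one within an 8-letter form. Lamp1 held 4 E-boxes between -61 and -15, none within the 8-letter form, and Sgsh 1 at -29. Of the members called in BMDM at 1 week, the E-box stood in 5 of 11 matched higher members and 6 of 20 matched lower members, and the 8-letter form in 4 and 1 of them. Of the 8 matched members that were not called, 4 held the E-box and 1 the 8-letter form, so E-boxes were found in all 3 classes.

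In BMDM of the 1 week set, most hydrolase genes were lower under hypergravity while most subunits of the proton pump were higher. Of the 45 members, 14 were called higher, 23 lower and 8 were not called at an adjusted p below 0.05 (edgeR quasi-likelihood test, Benjamini-Hochberg adjustment over 13842 genes). The response of this set was broad: 61.4% of all genes tested were called, 30.5% higher and 30.8% lower. The members' median log2 change was -0.27, against -0.03 over all genes tested. Together the 45 members took 5.15% and 4.87% of counts in the hypergravity libraries, against 9.76%, 9.59% and 9.14% in the Normal libraries. The TMM scaling factors of the hypergravity libraries were 0.853 and 0.868, so ratios of CPM lie below the fitted changes. With scaling by library size alone, 11 members were higher and 27 lower, the median over all genes stood at -0.29, and 34.7% of called genes were higher in place of 49.7%. Under that scaling no member called above changed sign, and 34 of the 37 calls were kept.

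**Figure D1:**
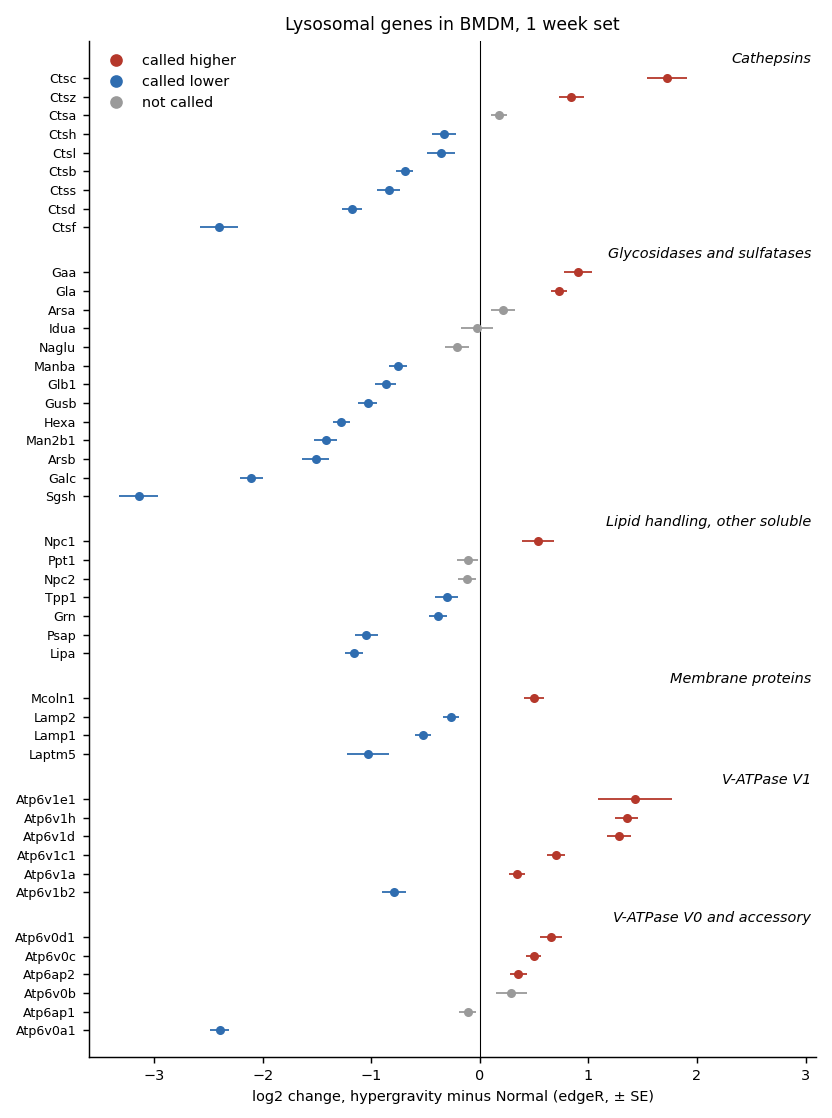
Log2 change of each of the 45 members in BMDM of the 1 week set, hypergravity minus Normal, with its standard error (n = 2 hypergravity and 3 Normal libraries), ordered within 6 groups by role. Most points of the hydrolase groups lie left of 0, and 5 of 6 V1 subunits lie right of it, with Atp6v1b2 and Atp6v0a1 as the pump genes called lower.

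Among the cathepsins, the main proteases of the lysosome, 2 rose, 6 fell and 1 did not pass, with a median of -0.36. Ctsd, the aspartic protease cathepsin D (chromosome 7, 142375911 to 142388038, mm10), stood at 6096 and 5658 CPM under hypergravity, against 16380, 16270 and 15170 CPM in Normal libraries. Its log2 change was -1.18 ± 0.09 (SE, edgeR adjusted p = 1.82e-06). Each hypergravity library lay far below every Normal library, and the gene ranked 10th and 11th by counts in them, against 5th, 5th and 6th. Ctsb, a cysteine protease, had 9682 and 9253 CPM under hypergravity and 18660, 18180 and 18210 CPM in Normal libraries (-0.69 ± 0.08, adjusted p = 3.38e-05). Ctsf, a cysteine protease of low level here, had 3.20 and 2.91 CPM, against 16.02, 20.0 and 22.07 CPM (-2.40 ± 0.17, adjusted p = 1.35e-06). It was the cathepsin with the largest fall. Ctss, which trims the invariant chain of class II antigen presentation, fell by 0.84 on the log2 scale, and Ctsh, an aminopeptidase, fell by 0.33.

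Ctsl, the cysteine protease cathepsin L, showed the weakest call of the group. It had 2272 and 2049 CPM under hypergravity, against 3623, 3533 and 2788 CPM in Normal libraries, a log2 change of -0.36 ± 0.13 (adjusted p = 0.0359). The groups did not overlap, but the call was lost on leaving out any of 4 libraries, with adjusted p = 0.0519 and 0.201 without hypergravity replicate 1 or 2 and 0.0944 and 0.104 without Normal replicate 1 or 2. The call was also lost in edgeR with DESeq2 size factors (adjusted p = 0.0512) and with only the groups compared in the fit (0.068). With all 19 libraries in 1 fit it was lost as well (0.104). Over all alternatives the adjusted p of Ctsl ran from 5.83e-05 to 0.201.

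The cathepsin genes that rose were Ctsc and Ctsz. Ctsc, dipeptidyl peptidase 1, which activates serine proteases of immune cell granules (chromosome 7, 88278085 to 88310888), stood at 788.1 and 749.9 CPM under hypergravity, against 230.1, 232.0 and 380.1 CPM in Normal libraries. Its log2 change of 1.72 ± 0.18 was the largest rise among the members (adjusted p = 2.16e-05). Ctsz, a carboxypeptidase, had 2521 and 2270 CPM, against 1793, 1618 and 1399 CPM (0.84 ± 0.11, adjusted p = 0.000125). Neither gene's hypergravity libraries overlapped with the Normal ones. Ctsa, a carboxypeptidase that is also the protective protein of the lysosomal galactosidase and sialidase, was not called (0.18, adjusted p = 0.0716).

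Glycosidases and sulfatases, which take apart glycans, glycosaminoglycans and glycolipids, had the lowest median of the 6 groups, -0.87, with 2 members higher, 8 lower and 3 not called. Sgsh, the sulfamidase of heparan sulfate breakdown (chromosome 11, 119343425 to 119355536), had 2.70 and 3.33 CPM under hypergravity, against 27.9, 30.4 and 39.2 CPM in Normal libraries. Its log2 change of -3.14 ± 0.18 was the largest fall among the members (adjusted p = 2.86e-07). Galc, the galactosylceramidase (chromosome 12, 98202294 to 98259459), stood at 37.6 and 36.5 CPM, against 178.2, 185.2 and 210.7 CPM (-2.11 ± 0.11, adjusted p = 1.14e-07). In both genes the hypergravity libraries lay close together and well below the lowest Normal library. Hexa, the alpha subunit of beta-hexosaminidase (chromosome 9, 59539540 to 59565109), had 437.3 and 402.5 CPM, against 1224, 1236 and 1197 CPM (-1.27 ± 0.08, adjusted p = 6.27e-07). Man2b1, the lysosomal alpha-mannosidase, had 328.3 and 350.0 CPM, against 995.7, 1039 and 1231 CPM (-1.42 ± 0.11, adjusted p = 1.6e-06). Arsb, which removes sulfate from dermatan and chondroitin sulfate, had 14.6 and 12.6 CPM, against 50.7, 41.4 and 46.6 CPM (-1.51 ± 0.13, adjusted p = 3.64e-06). In these 3 genes, too, the groups lay far apart. The beta-glucuronidase gene Gusb (-1.03), the beta-galactosidase gene Glb1 (-0.87) and the beta-mannosidase gene Manba (-0.75) fell as well.

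In the same group, 2 members went the other way. Gaa, the acid alpha-glucosidase that breaks down glycogen, stood at 146.8 and 153.9 CPM under hypergravity, against 84.6, 92.7 and 113.2 CPM in Normal libraries (0.90 ± 0.13, adjusted p = 0.000177). Gla, the alpha-galactosidase A of globotriaosylceramide, stood at 322.0 and 309.5 CPM, against 231.1, 227.7 and 226.0 CPM (0.73 ± 0.07, adjusted p = 1.63e-05). The hypergravity libraries lay above all Normal libraries in both genes. Idua (-0.03), Naglu (-0.21) and Arsa (0.21), enzymes of glycosaminoglycan and sulfatide breakdown, were not called.

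Of the 7 genes of lipid handling, further soluble hydrolases and activators, 1 rose, 4 fell and 2 did not pass, with a median of -0.31. Psap, the precursor of the saposins that help hydrolases reach lipids (chromosome 10, 60277627 to 60302597), had 7681 and 7328 CPM under hypergravity, against 18630, 19340 and 17870 CPM in Normal libraries (-1.05 ± 0.11, adjusted p = 1.43e-05). Lipa, the acid lipase of cholesteryl esters and triglycerides, had 898.4 and 946.1 CPM, against 2293, 2432 and 2711 CPM (-1.16 ± 0.08, adjusted p = 1.27e-06). Both genes were lower in each hypergravity library than in any Normal library by a wide gap. Grn, which encodes progranulin, had 1271 and 1199 CPM, against 1934, 1869 and 2000 CPM (-0.38 ± 0.08, adjusted p = 0.00225). The tripeptidyl peptidase gene Tpp1 fell by 0.31 on the log2 scale. Npc1, the membrane transporter that exports cholesterol from lysosomes, had 276.8 and 327.0 CPM, against 203.8, 233.5 and 312.5 CPM, and its groups overlapped. Its fitted log2 change was 0.54 ± 0.15 (adjusted p = 0.00981), a call lost without hypergravity replicate 2 (adjusted p = 0.0979) and with scaling by library size alone (0.27, adjusted p = 0.154). Its soluble partner Npc2 (-0.12) and the palmitoyl thioesterase gene Ppt1 (-0.11) were not called.

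Of the 4 lysosomal membrane proteins, 1 rose and 3 fell, with a median of -0.39. Lamp1, a main glycoprotein of the lysosomal membrane, stood at 1686 and 1600 CPM under hypergravity, against 2834, 2779 and 2881 CPM in Normal libraries (-0.52 ± 0.07, adjusted p = 0.000162). Lamp2, its relative with a part in autophagy, fell by 0.26 on the log2 scale. Mcoln1, the calcium-permeable channel TRPML1, had 57.6 and 56.1 CPM, against 50.7, 49.3 and 44.6 CPM (0.50 ± 0.09, adjusted p = 0.00113). Laptm5, a membrane protein known from blood cells, had 4.10 and 4.42 CPM, against 8.97, 9.54 and 13.1 CPM (-1.03 ± 0.20, adjusted p = 0.0011). The Laptm5 values may not reflect its expression, since how reads were counted is not known, and rest on 82 to 146 counts in hypergravity libraries and 175 to 280 counts in Normal libraries.

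**Figure D2:**
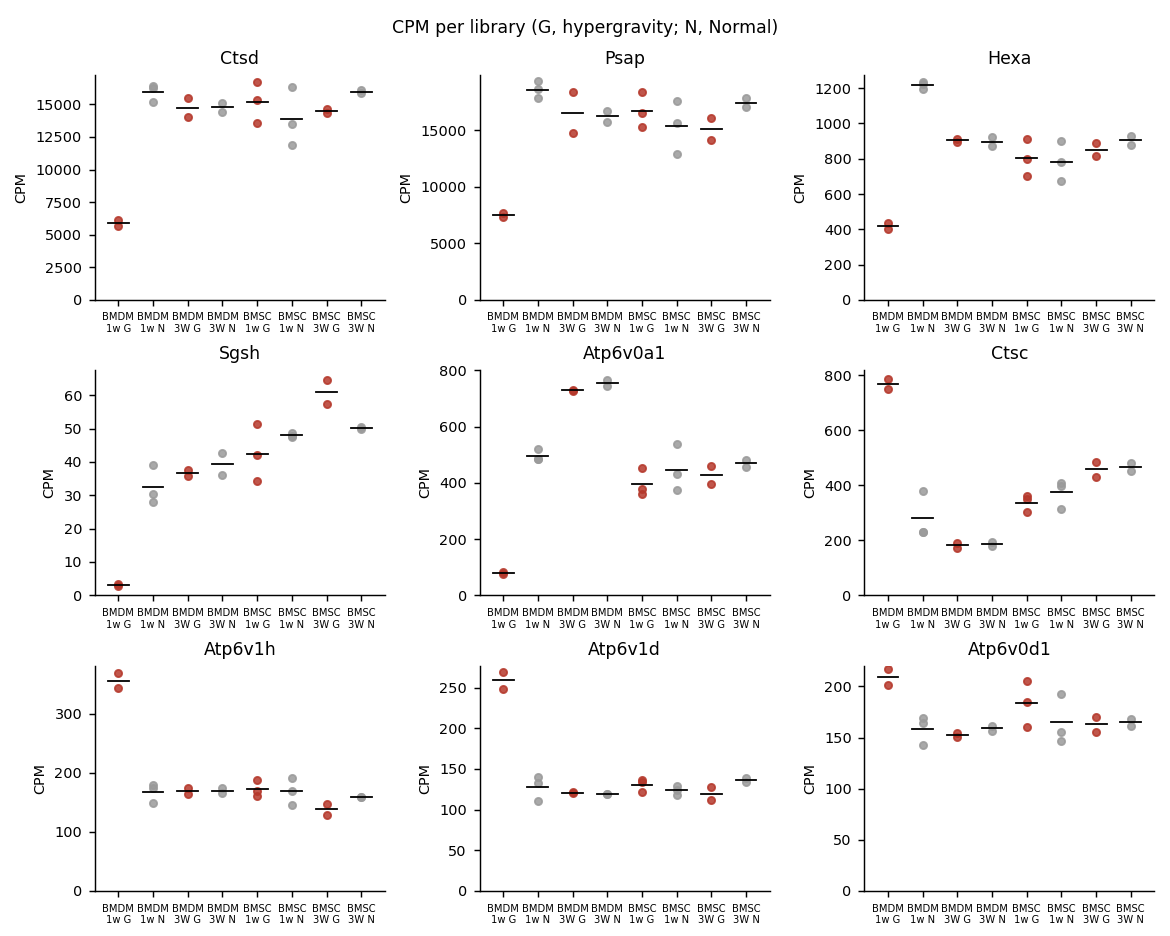
CPM of 9 members in each library, by group (G, hypergravity; N, Normal), with the group mean as a bar. In the 1 week BMDM set the hypergravity points of Ctsd, Psap, Hexa, Sgsh and Atp6v0a1 lie below all Normal points. Those of Ctsc, Atp6v1h, Atp6v1d and Atp6v0d1 lie above them. In the other 3 sets the groups overlap or their means differ by a smaller ratio. Groups that do not overlap there include Sgsh (hypergravity above) and Ctsd, Psap, Atp6v1h and Atp6v1d (below) in BMSC at 3 weeks.

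The V1 part of the V-ATPase, which holds the ATP-splitting head and its stalks, had the highest median of the 6 groups, 0.99, with 5 subunits higher and 1 lower. Atp6v1h, the H subunit that couples or uncouples V1 (chromosome 1, 5070018 to 5162529), stood at 369.6 and 342.9 CPM under hypergravity, against 179.1, 173.9 and 149.1 CPM in Normal libraries (1.35 ± 0.10, adjusted p = 1.85e-06). Atp6v1d, the D subunit of the central rotor (chromosome 12, 78840725 to 78861638), stood at 269.2 and 248.5 CPM, against 140.0, 133.1 and 110.2 CPM (1.28 ± 0.11, adjusted p = 5.24e-06). Atp6v1c1, a C subunit, stood at 416.4 and 388.5 CPM, against 298.7, 308.3 and 282.3 CPM (0.70 ± 0.08, adjusted p = 4.19e-05). In these 3 subunits each hypergravity library exceeded every Normal library. Atp6v1a, the catalytic A subunit, had 1002 and 1107 CPM, against 954.2, 984.9 and 1056 CPM, so its groups overlapped. Its log2 change of 0.34 ± 0.08 was called (adjusted p = 0.00298), but not with scaling by library size alone (0.08, adjusted p = 0.403) nor with all 19 libraries in the fit (adjusted p = 0.0506). Atp6v1b2, the B subunit that alternates with A in the head, was the V1 subunit that fell, with 712.5 and 689.9 CPM, against 1597, 1502 and 1270 CPM (-0.79 ± 0.11, adjusted p = 0.000124). Atp6v1e1, a subunit of the peripheral stalk, had 9.86 and 9.09 CPM, against 2.63, 6.76 and 3.53 CPM (1.43 ± 0.34, adjusted p = 0.00436). Its change has the largest standard error of the members and rests on 197 to 300 counts in hypergravity libraries and 70 to 124 counts in Normal libraries.

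Of the V0 subunits and accessory proteins, 3 rose, 1 fell and 2 did not pass, with a median of 0.32. Atp6v0d1, the d subunit that joins the rotor to the membrane ring (chromosome 8, 105524465 to 105566047), stood at 216.7 and 201.2 CPM under hypergravity, against 169.5, 164.3 and 142.4 CPM in Normal libraries (0.66 ± 0.10, adjusted p = 0.000264). The ring subunit gene Atp6v0c (0.49) and the gene of the prorenin receptor, Atp6ap2 (0.36), rose as well. Atp6v0a1, an a subunit in which protons cross the membrane (chromosome 11, 101009452 to 101063719), had 75.0 and 81.9 CPM, against 486.0, 484.7 and 518.6 CPM. Its log2 change was -2.40 ± 0.08 (adjusted p = 1.24e-08), the smallest p among the members. Atp6v0b (0.29, adjusted p = 0.106) and Atp6ap1 (-0.11, adjusted p = 0.247) were not called.

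Summed CPM of both the hydrolases and the pump genes were lower under hypergravity, that of the hydrolases by the larger ratio. The cathepsin, glycosidase and lipid-handling groups together summed to 43831 and 41173 CPM under hypergravity, against 87626, 86113 and 81888 CPM in Normal libraries of the 1 week BMDM set. The 12 V-ATPase members summed to 5135 and 5050 CPM, against 5949, 5836 and 5447 CPM, whereas 8 of the 12 genes were called higher. These 2 results are on different scales. The sums use raw library totals, and the calls follow TMM scaling. Its factors were 0.853 and 0.868 in the hypergravity libraries, against 1.017, 1.032 and 1.049 in the Normal libraries. The lower pump sum therefore holds for CPM, and the sum was not compared on the TMM scale. Per 100 CPM of the hydrolase and lipid-handling groups, the pump genes had 11.7 and 12.3 CPM under hypergravity, against 6.79, 6.78 and 6.65 CPM. This ratio within a library, which needs no scaling between libraries, lay higher in both hypergravity libraries than in any of the other 17 libraries, where it ran from 6.18 to 8.11. Most of its denominator came from Ctsb, Ctsd, Psap and Ctss, so it mainly sets the pump genes against these genes. They had 18660, 16380, 18630 and 14670 CPM in Normal replicate 1. In hypergravity replicate 1 they had 9682, 6096, 7681 and 6569 CPM. In CPM, 28 members had both hypergravity libraries below all Normal libraries, 12 above them, and 5 overlapped. Over all genes tested 73.1% did not overlap, 25.7% above and 47.4% below, so that non-overlap in CPM was common in this set.

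**Figure D3:**
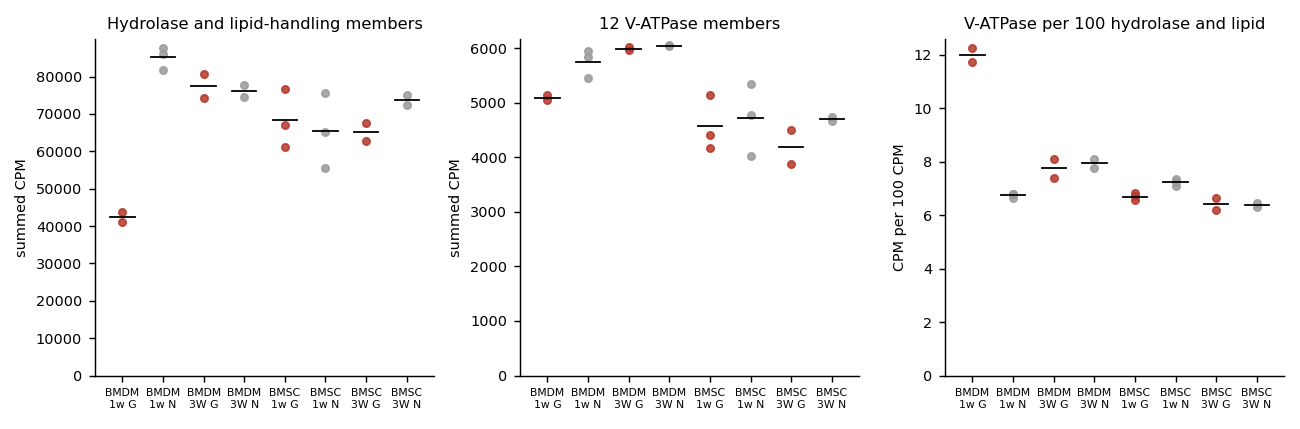
Summed CPM of the cathepsin, glycosidase and lipid-handling members (left) and of the 12 V-ATPase members (middle), and V-ATPase CPM per 100 CPM of those hydrolase and lipid-handling members (right), in each library by group, with group means as bars. The 1 week BMDM hypergravity libraries stand at 43831 and 41173 CPM in the left panel and at 11.7 and 12.3 in the right panel, apart from all other groups.

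Markers of other states moved with these values. In the 1 week BMDM set the 7 inflammatory markers summed to 32110 and 31530 CPM under hypergravity, against 18.6, 19.6 and 31.1 CPM in Normal libraries, and all 7 were called higher. Macrophage markers summed to 26780 and 26030 CPM, against 33410, 35300 and 36100 CPM, with 4 of 15 tested called higher and 8 lower. Neutrophil markers summed to 230.6 and 195.4 CPM, against 455.5, 317.6 and 620.4 CPM with at most 2 of 12 at 0 in a library, and 8 of 11 tested were called lower. The part of these shifts in the members' values was not tested.

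Other genes of the pathway also moved in both directions in this set. Among 28 further lysosomal hydrolases, 12 rose and 11 fell, with a median of 0.06, while 30.5% of all genes tested were called higher and 30.8% lower. Acp5, the tartrate-resistant acid phosphatase, stood at 315.6 and 291.3 CPM under hypergravity, against 46.4, 47.4 and 37.0 CPM in Normal libraries (log2 change 3.06). The fucosidase gene Fuca1 (-1.88) and the carboxypeptidase gene Cpq (-1.09) fell. Of 13 further V-ATPase genes 6 were expressed enough to be tested, of which Atp6v1g1 (0.61) and Tcirg1 (0.30), the a subunit of the osteoclast pump, rose and Atp6v0d2 (-1.04), a d subunit known from osteoclasts, fell.

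Genes that control or feed the lysosome showed a like mixture. Of 18 regulators, 6 rose and 6 fell, with a median of 0.05, in a set where 61.4% of all genes tested were called, 30.5% higher and 30.8% lower. Tfeb encodes a transcription factor of the MiT/TFE family, which binds the E-box element. The gene had 22.0 and 20.5 CPM under hypergravity, against 73.3, 73.9 and 57.0 CPM in Normal libraries. Its log2 change was -1.42 ± 0.14 (adjusted p = 1.19e-05). Within this family, the difference between the 3 week and the 1 week response in BMDM was called for Tfeb and Mitf (0.64). That difference was not called for Tfec (0.42) or Tfe3 (0.08), so Tfeb alone does not describe the family. The genes Rragc (0.79), Lamtor3 (0.92) and Fnip1 (0.92), whose products place and control the growth kinase mTORC1 at the lysosome, rose. Of the other genes of the Ragulator complex to which Lamtor3 belongs, Lamtor1 (-0.86), Lamtor2 (-0.49) and Lamtor4 (-0.94) fell and Lamtor5 was not called. Of 16 genes for delivery of hydrolases, 8 rose and 4 fell. M6pr, a mannose 6-phosphate receptor, stood at 1077 and 1012 CPM, against 515.4, 517.6 and 454.8 CPM (1.34), and the sorting adaptor gene Gga2 (1.16) and Cln8 (0.91) rose, whereas Cln6 (-1.04) fell. All 4 cathepsin inhibitor genes tested were called: Cst7 (5.86) and Cstb (0.74) higher, and Serpinb6a (-1.43) and Cst3 (-0.89) lower. Cst7, the cystatin F gene, had 36.1 and 33.7 CPM, against 0.545, 0.381 and 1.26 CPM.

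In BMDM of the 3 week set, levels of the lysosomal genes differed little between hypergravity and Normal libraries. None of the 45 members was called by edgeR, with 1 at an unadjusted p below 0.05, and DESeq2 called 0. Of all genes tested 0.426% were called, all of them higher (0.426% higher and 0% lower). Log2 changes of the members ran from -0.29 to 0.50, with a median of 0.03, against 0.00 over all genes. The 7 inflammatory markers were called higher in this set too (median 6.34). They summed to 1324 and 1013 CPM under hypergravity, against 11.5 and 14.8 CPM in Normal libraries. In the 1 week set their hypergravity sums were far larger, 32110 and 31530 CPM. The part of this difference in the members' values was not tested. Ctsd stood at 15470 and 14040 CPM under hypergravity and 14430 and 15120 CPM in Normal libraries (0.04 ± 0.09). Sgsh had 37.6 and 35.9 CPM, against 36.1 and 42.5 CPM. Atp6v0a1 had 730.7 and 726.4 CPM, against 743.3 and 766.4 CPM. The groups of Ctsd and Sgsh overlapped, and those of Atp6v0a1 lay apart by less than the Normal libraries differed from each other.

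The 5 members with the smallest p at 3 weeks were Arsb, Atp6v0c, Ctsh, Atp6v1e1 and Ctsb, each with an edgeR adjusted p of 1. Arsb had 58.5 and 54.6 CPM under hypergravity, against 73.0 and 68.7 CPM in Normal libraries (-0.29 ± 0.13). Atp6v0c had 541.8 and 510.2 CPM, against 491.4 and 488.4 CPM (0.14 ± 0.08), and Ctsh 405.8 and 380.9 CPM, against 356.3 and 360.3 CPM (0.17 ± 0.12). These 3 genes had no overlap between groups of 2, as had 37.7% of all genes tested, and none passed the test. Atp6v1e1 had 6.91 and 4.42 CPM, against 3.63 and 4.67 CPM, and Ctsb 19330 and 17930 CPM, against 17240 and 18420 CPM, and both overlapped. Of the further genes followed in every set, Psap had 18380 and 14750 CPM under hypergravity, against 15770 and 16750 CPM in Normal libraries, Lamp1 had 2498 and 2406 CPM, against 2462 and 2510 CPM, and Ctsl had 3708 and 3255 CPM, against 3377 and 3633 CPM. Their changes (0.07, 0.02 and 0.03) were smaller than their standard errors. Grn had 1708 and 1637 CPM, against 1646 and 1809 CPM (-0.01), Hexa had 911.3 and 895.8 CPM, against 872.4 and 922.4 CPM (0.05), and Lipa had 2642 and 2616 CPM, against 2624 and 2637 CPM (0.04). These hydrolase and activator genes overlapped between the groups. Of the pump genes followed throughout, Atp6v1a had 1056 and 1090 CPM, against 1047 and 1027 CPM (0.09 ± 0.08), and Atp6v0d1 had 154.2 and 150.7 CPM, against 156.3 and 161.5 CPM (-0.02 ± 0.11). The pump genes had 7.40 and 8.11 CPM per 100 CPM of the hydrolase and lipid-handling groups, against 8.11 and 7.76 CPM.

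The test of the difference itself, the 3 week response minus the 1 week response in BMDM, called 30 members, 20 with a positive and 10 with a negative difference. Over all genes 43.4% were called, 21.9% higher and 21.5% lower. Positive differences were called for 5 cathepsins, 8 glycosidases and sulfatases and 3 of the lipid-handling group, the members that had fallen at 1 week, with Sgsh at 3.08 ± 0.24 (edgeR adjusted p = 7.56e-06), Ctsf at 2.56 ± 0.24 (2.17e-05) and Galc at 2.17 ± 0.15 (3.6e-06). Among pump genes Atp6v0a1 had the largest positive difference, 2.38 ± 0.12 (6.92e-07). Negative differences were called for Ctsc (-1.72), Atp6v1h (-1.32) and Atp6v1d (-1.22), among others. The sets share no libraries, and the length of exposure and the set cannot be told apart here.

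Normal BMDM of the 2 sets were compared for that reason. Of the 45 members, 6 were called between the 3 week and the 1 week Normal libraries, 2 higher and 4 lower, or 13.3%. Over all genes 3.97% were called, 1.55% higher and 2.41% lower. Higher in the 3 week set were Atp6v0a1, with 743.3 and 766.4 CPM against 486.0, 484.7 and 518.6 CPM in the 1 week set (0.56 ± 0.07, edgeR adjusted p = 0.00455), and Arsb (0.57 ± 0.11, 0.0271). Lower were Ctsh (-0.66), Ctss (-0.50), Hexa (-0.49) and Npc2 (-0.44). The count was 0 without either 3 week Normal library, 17 without Normal replicate 3 of the 1 week set and 3 without Normal replicate 2. Neutrophil markers summed to 55.6 and 88.9 CPM in the 3 week Normal libraries, against 455.5, 317.6 and 620.4 CPM in those of the 1 week set, and all 11 tested were called lower; their part in the members' differences was not tested.

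In BMSC of the 1 week set none of the 45 members was called by edgeR or DESeq2, and 3 had an unadjusted p below 0.05 in edgeR. Over all genes 2.72% were called, 0.249% higher and 2.47% lower. The members' median log2 change was -0.04, against 0.00 over all genes, and their range was -0.42 to 0.28. Npc1 came closest to a call, with 266.9, 252.6 and 298.5 CPM under hypergravity, against 354.3, 320.5 and 388.9 CPM in Normal libraries (-0.42 ± 0.13, adjusted p = 0.131). Its groups did not overlap, and it was called with no filter on low counts (edgeR adjusted p = 0.0384) and with the replicate number as a block (log2 -0.41, adjusted p = 0.0312). Ctsf had 12.5, 12.6 and 11.6 CPM, against 9.05, 11.3 and 9.16 CPM (0.28 ± 0.11, adjusted p = 0.215), and Galc had 135.7, 138.8 and 157.0 CPM, against 170.8, 159.4 and 173.3 CPM (-0.26 ± 0.11, adjusted p = 0.265). In both, the groups lay apart without passing the test, as did those of Npc1, and over all genes 20.5% had groups that did not overlap. Arsb, with 50.2, 44.8 and 38.8 CPM against 47.1, 56.1 and 44.7 CPM (-0.18, adjusted p = 0.323), and Idua, with 39.1, 35.9 and 39.5 CPM against 45.03, 39.59 and 42.4 CPM (-0.19, adjusted p = 0.369), had the next smallest p. Igf2r, the larger mannose 6-phosphate receptor, was the 1 gene called (-0.60) among the 110 further pathway genes tested.

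Highly expressed hydrolase genes varied among BMSC libraries of a group. Ctsd had 13540, 15320 and 16740 CPM under hypergravity, against 13490, 11890 and 16340 CPM in Normal libraries (0.09 ± 0.20). Psap had 15310, 16510 and 18370 CPM, against 15690, 12930 and 17580 CPM (0.08 ± 0.21), and Ctsb 12110, 13450 and 16190 CPM, against 13320, 11420 and 16130 CPM (-0.01 ± 0.22). In each gene Normal replicate 2 was lowest and replicate 3 of either group was high, and the groups overlapped. Lamp1 had 2058, 2148 and 2250 CPM under hypergravity, against 2062, 1947 and 2443 CPM in Normal libraries (-0.04), and Ctsl had 3972, 3917 and 4604 CPM, against 4175, 3803 and 5007 CPM (-0.10). Grn had 1103, 1138 and 1292 CPM, against 1057, 914.9 and 1198 CPM (0.12), Hexa had 699.7, 797.0 and 914.7 CPM, against 781.0, 671.2 and 900.3 CPM (0.00), and Lipa had 1730, 1855 and 2325 CPM, against 2320, 1866 and 2607 CPM (-0.24). Of the pump genes, Atp6v1a had 609.0, 602.2 and 734.8 CPM, against 805.7, 667.9 and 818.3 CPM (-0.27 ± 0.16), and Atp6v0d1 had 160.2, 185.0 and 205.4 CPM, against 155.8, 146.3 and 193.1 CPM (0.11 ± 0.17). All 7 of these genes overlapped between the groups as well. Stroma markers, for comparison, summed to 13080, 11010 and 6477 CPM under hypergravity and 5338, 12180 and 4124 CPM in Normal libraries. The members took 6.81%, 7.45% and 8.49% of counts under hypergravity, against 7.28%, 6.22% and 8.41% in Normal libraries, so that within each group the library with the lowest stromal sum had the highest share of lysosomal counts. The part of the stromal sum in the members' values was not tested.

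In BMSC of the 3 week set no gene of the table was called by edgeR (0% in either direction, that is 0% higher and 0% lower), with 800 genes and 1 member at an unadjusted p below 0.05. DESeq2 called 4 genes and 0 members. The members' median was -0.16, against 0.00 over all genes, and 7 of 45 were positive. All 12 V-ATPase members had negative values, between -0.54 and -0.08, none called. Ctsf had 14.5 and 14.7 CPM under hypergravity, against 11.3 and 10.9 CPM in Normal libraries (0.34 ± 0.14), and Arsb had 57.6 and 56.1 CPM, against 45.5 and 48.5 CPM (0.21 ± 0.11). Atp6v1d had 111.8 and 127.2 CPM, against 138.3 and 133.8 CPM (-0.25 ± 0.14), and Ctsl had 3129 and 3458 CPM, against 3984 and 4127 CPM (-0.36 ± 0.22). Atp6v1c1 had 196.0 and 234.5 CPM, against 268.1 and 260.3 CPM (-0.35 ± 0.21). These 5 genes had the smallest p among the members, each with an edgeR adjusted p of 0.899 and groups of 2 that did not overlap. In CPM, 21 of the 45 members had both hypergravity libraries below both Normal libraries, 7 above them, and 17 overlapped. Over all genes tested 45.6% did not overlap. Ctsb had 12760 and 13660 CPM, against 14930 and 15270 CPM (-0.25), Lamp1 had 2138 and 2206 CPM, against 2253 and 2294 CPM (-0.13), and Grn had 1402 and 1477 CPM, against 1358 and 1527 CPM (-0.06). Hexa had 813.1 and 890.0 CPM, against 878.1 and 929.3 CPM (-0.15), and Lipa had 1836 and 2086 CPM, against 2224 and 2291 CPM (-0.26). Atp6v1a had 567.3 and 650.9 CPM, against 701.5 and 693.4 CPM (-0.26 ± 0.20), and Atp6v0d1 had 155.0 and 170.6 CPM, against 161.3 and 168.3 CPM (-0.08 ± 0.20). Ctsb, Lamp1, Lipa and Atp6v1a were below both Normal libraries in both hypergravity libraries, and Grn, Hexa and Atp6v0d1 overlapped. Stroma markers summed to 9654 and 4329 CPM under hypergravity, against 2909 and 2255 CPM, with a median log2 change of 1.08 and none called, and Ctsd (14350 and 14650 CPM, against 15860 and 16080 CPM) and Psap (14120 and 16080 CPM, against 17080 and 17830 CPM) had their lower values in the hypergravity libraries. The part of the stromal sum in these values was not tested. The difference between the 3 week and the 1 week response in BMSC was called for 0 members and 0% of genes, 0% higher and 0% lower.

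**Figure D4:**
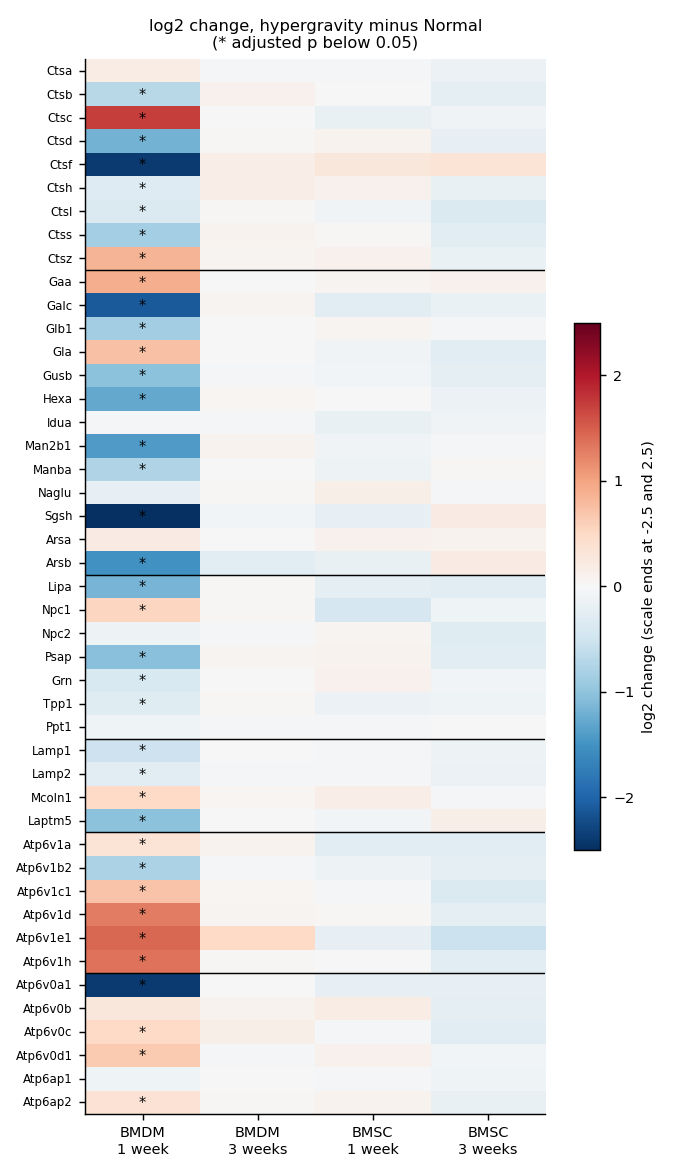
Log2 change, hypergravity minus Normal, of the 45 members (rows, grouped by role) in the 4 sets (columns), with an asterisk where the edgeR adjusted p is below 0.05. Asterisks stand in 37 rows of the BMDM 1 week column and in no row of the other 3 columns.

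The 1 week responses of both cell types were compared in a fit of all 19 libraries. The BMDM response minus the BMSC response was called for 31 members, 12 positive and 19 negative, and over all genes 49.6% were called, 24.8% higher and 24.7% lower. All 31 had also been called in BMDM with the same sign. Negative differences were largest for Sgsh (-2.94 ± 0.25, edgeR adjusted p = 7.45e-08), Ctsf (-2.68 ± 0.19, 8.68e-09), Atp6v0a1 (-2.19 ± 0.23, 8.72e-07) and Galc (-1.85 ± 0.16, 8.89e-08). Positive ones included Ctsc (1.90 ± 0.22, 1.87e-06), Atp6v1h (1.36 ± 0.20, 3.18e-05), Atp6v1d (1.24 ± 0.17, 1.41e-05) and Npc1 (0.95 ± 0.21, 0.00136). All 6 V1 subunits were called, 5 positive and Atp6v1b2 negative.

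In Normal cells the order of the genes by level was alike in both cell types. Per kilobase of annotated exon (GENCODE M21, mm10), the highest members in Normal BMDM were Ctss with 8785 CPM per kb, Ctsd with 6581, Psap with 6440 and Ctsb with 2998. In Normal BMSC, Ctsd led with 6267 CPM per kb, before Psap with 5912, Ctss with 5312 and Ctsb with 2349. The lowest 2 in both were Laptm5, with 2.61 CPM per kb in BMDM and 1.75 in BMSC, and Atp6v1e1, with 1.03 and 1.16. The remaining 5 V1 subunits, which join Atp6v1e1 in the same complex, ran from 17.3 to 290.9 CPM per kb in BMDM. Whether the low counts of Laptm5 and Atp6v1e1 reflect low expression or the way reads were counted was not tested. Normal BMDM exceeded Normal BMSC in 26 members and lay below in 2, and over all genes 49.8% were called, 22.2% higher and 27.7% lower. The members' median log2 difference was 0.35, against -0.01 over all genes. The largest positive differences were Ctsf (0.83), Ctss (0.77), Gusb (0.75), Lamp2 (0.72) and Laptm5 (0.72), and all 4 membrane proteins were higher in BMDM. Ctsc (-0.74 ± 0.12, edgeR adjusted p = 5.39e-05) and Sgsh (-0.33 ± 0.12, 0.0282) were lower in BMDM. All 12 stroma markers and all 12 neutrophil markers were called lower in Normal BMDM, with medians of -6.18 and -4.17, and the part of such other cells in the BMSC levels was not tested.

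**Figure D5:**
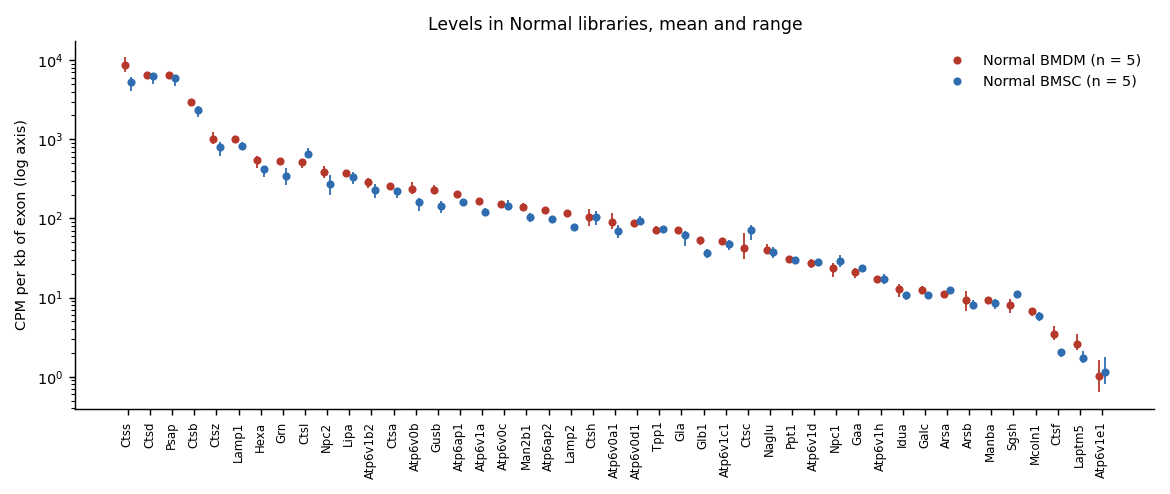
Level of each member in Normal libraries of BMDM (red) and BMSC (blue), as CPM per kilobase of annotated exon on a log axis, with the mean as a point and the lowest to highest of 5 libraries as a line, ordered by the level in BMDM. Ctss, Ctsd, Psap and Ctsb are highest in both cell types, led by Ctss in BMDM and by Ctsd in BMSC. Laptm5 and Atp6v1e1 stand last in both.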

How the data were processed

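The deposited table holds raw read counts per gene symbol made by the authors, 1 column for each of 19 libraries. The aligner was HISAT2 2.0.4 and the build mm10, per the submitters' processing notes. How counts were made from alignments (program, annotation, strand) is not given in the sources used here, so reads shared between overlapping genes cannot be assigned. By the GENCODE M21 annotation, 19 members share exonic bases with another gene, 3 of them on the same strand (Ctsd, Ctsl and Glb1).

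Counts were tested with edgeR 4.0.16 (R 4.3.3, limma 3.58.1) (quasi-likelihood test, TMM scaling, filterByExpr), with 1 coefficient per group, separately for the 9 BMDM libraries (13842 genes) and the 10 BMSC libraries (15289 genes), and for all 19 libraries (15550 genes) where cell types were compared. Adjusted p-values come from edgeR where no other tool is given, over all genes tested, with calls below 0.05. CPM use raw library totals, whereas log2 changes (± SE) follow TMM. Totals of 16324619 to 33015671 counts make 3 counts, the floor, worth 0.0909 to 0.184 CPM. Between libraries of a group the variance was 4.5 to 110 times that of counting (chi-square per degree of freedom over genes with at least 20 counts, 14 pairs), so no pair agreed within counting noise and each library was counted once. This does not show that libraries came from separate mice or cultures.

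The members and all gene lists were chosen with earlier results of these data known. Values per library were given, by rule, for up to 10 higher and 10 lower called members with the largest change (the 5 smallest p where fewer than 5 were called) and for a set of 10 members, and up to 4 genes of each further list by smallest p. A few further values, such as Laptm5, Mcoln1, Cst7, Igf2r and the other Lamtor genes, were chosen after they were seen. The fits were also run on simulated data in which few genes changed, with as many raised as lowered. That setting differs from the broad response of the 1 week BMDM set, so it could not test the scaling used there. Alternatives were DESeq2 1.42.0, its size factors, library size alone, no count filter, a filter at 1 CPM, the replicate number as a block, other samples in the fit, and omission of each library.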

Additional observations from a re-analysis of the deposited data

Results flagged for a closer look

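The response to hypergravity of BMDM differed between the sets, by the test of the 3 week minus the 1 week response, in 30 of the 45 members, while 43.4% of all genes tested were called. The 5 with the smallest p were Atp6v0a1 (difference 2.38 on the log2 scale), Galc (2.17), Sgsh (3.08), Hexa (1.32) and Ctsf (2.56), which were all lower under hypergravity at 1 week and not called at 3 weeks.

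The 1 week response also differed between the cell types, as BMDM minus BMSC, in 31 members, while 49.6% of all genes tested were called. The 5 with the smallest p were Ctsf (difference -2.68), Sgsh (-2.94), Galc (-1.85), Atp6v0a1 (-2.19) and Ctsc (1.90). With at most 3 libraries in a group, no formal test for a single outlying library was made. Of the Normal BMDM libraries of the 1 week set, pairs with replicate 3 differed by 72.2 and 38.3 times the counting variance, against 9.62 times for replicates 1 and 2, and without replicate 3 the members called in the 1 week set were again 37.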

How the results depend on the processing

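Most counts of called members stayed within 1.5 times the reported ones. On leaving out 1 library at a time, the count ran from 32 to 37 in the BMDM 1 week set, from 25 to 35 for the BMDM response difference between sets, from 23 to 30 for the 1 week response of BMDM minus BMSC and from 25 to 32 for Normal BMDM minus Normal BMSC. It stayed at 0 to 0 in the BMDM 3 week set, both BMSC sets and the BMSC response difference. For Normal BMDM of the 3 week minus the 1 week set, where 6 members were called, it ran from 0 to 17, and it was 1 with only the groups compared and 3 with all 19 libraries in the fit. Under the other settings the BMDM 1 week count ran from 34 to 38, the response difference from 25 to 34, the cell type difference of responses from 23 to 35 and the Normal comparison from 27 to 30.

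With the replicate number as a replicate block, the counts were 38 in the BMDM 1 week set, 1 in the BMSC 1 week set (Npc1, log2 -0.41, adjusted p = 0.0312) and 16 between Normal BMDM of the sets; without a filter on low counts the BMSC 1 week count was also 1 (Npc1, -0.40). Libraries with the same number did not deviate together throughout: in the BMSC 1 week set, the set with 3 pairs, the correlations of deviations were -0.0934, 0.167 and 0.546. The numbers were therefore not taken as pairs, and the block moved no other count by over 1.5 times. Among the named members, 11 values in the BMDM 1 week set lost their call under an alternative, all of Ctsl, Npc1 and Atp6v1a; the cause was not tested. Groups of 2 and 3 libraries and low counts of Atp6v1e1 and Laptm5 limit the precision.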

Other observations

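Further membrane proteins and autophagy genes changed in BMDM of the 1 week set. Of 15 other lysosomal membrane proteins tested, 5 rose and 6 fell, in a set where 30.5% of all genes tested were called higher and 30.8% lower. Tpcn1, a cation channel of endosomes and lysosomes, had 12.01 and 12.45 CPM under hypergravity, against 96.4, 101.6 and 116.0 CPM in Normal libraries (log2 -2.83 ± 0.11, edgeR adjusted p = 1.99e-08). Clcn7, the chloride-proton exchanger of lysosomes and of the osteoclast border, stood at 684.5 and 727.6 CPM, against 251.6, 252.8 and 308.1 CPM (1.65 ± 0.10, adjusted p = 4.47e-07). The sialic acid transporter gene Slc17a5 (-1.37) and the potassium and proton channel gene Tmem175 (-1.25) fell.

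Of 23 autophagy genes, 11 rose and 8 fell, with a median of 0.20, where 61.4% of all genes tested were called. Sqstm1, the cargo receptor p62, stood at 3020 and 2864 CPM under hypergravity, against 610.2, 686.5 and 643.6 CPM in Normal libraries (2.45 ± 0.08, adjusted p = 8.67e-09). The cargo receptor genes Optn (2.49) and Tax1bp1 (1.38) rose, and the kinase gene Ulk2 (-1.75) fell. None of these 2 lists' genes was called in the 3 week BMDM set, where 0.426% of all genes tested were called.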
